A study of Mus musculus with 24 samples.

Results

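The 111 star strand miRNAs on this mouse miRNA array are the mouse names that end in an asterisk, leaving out the families miR-297, miR-466, miR-467 and miR-669. They made up 111 of the 611 mouse miRNAs on the array, and 500 mouse miRNAs were outside the set. Before the 4 families were left out, 115 mouse names ended in an asterisk. For 100 of the 111, the same name without the asterisk, called the mate here, was on the array too.

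A miRNA hairpin is cut to a short duplex with a strand from each arm. Usually 1 strand, the guide, is loaded into an Argonaute protein and directs it to messenger RNAs through its seed, the bases near its 5′ end, while the other, the passenger or star strand, is degraded. The asterisk in older miRNA names marks the arm that was the rarer in the first cloning studies, and for some hairpins the star strand is the more abundant arm, or both arms are used, depending on the tissue.

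Lungs were taken at an age of 4 to 6 months from wild type mice and from mice of the SP-C/c-raf line, whose transgene puts an active c-Raf kinase under the promoter of surfactant protein C, so that it is made in lung epithelium. The study's methods describe laser microdissection of frozen sections, while its abstract speaks of RNA extracts from lungs. Whether the arrays hold dissected cells or whole lung is therefore not clear. Total RNA labelled with Cy3 was put on 1 array per animal. There were 4 groups of 6 arrays, called M WT (wild type males), M c-Raf (transgenic males), F WT (wild type females) and F c-Raf (transgenic females). The tissue label reads lung adenocarcinoma for all 24 arrays, the wild type ones included, so it does not separate tumour from normal tissue.

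Intensities are in the arbitrary units of the scanner after background subtraction, and a value near 0 means no signal over background. The brightness of an array, taken as the 75th percentile over the spots of 27 mouse miRNAs that every array detected, ran from 34.9 units (M c-Raf replicate 6) to 1212 units (M c-Raf replicate 4). Of the 5 epithelial markers, miR-200b and miR-200c were detected on all 24 arrays, miR-429 on 13, miR-200a on 11 and miR-141 on 1. The endothelial miR-126-3p was detected on 23 and miR-126-5p on 0. Markers of mesenchymal cells were detected on 3 (miR-199a-5p) to 24 arrays (miR-214) and those of red blood cells on 0 (miR-144) to 22 (miR-486). The 6 leukocyte markers were detected on 0 (miR-142-3p and miR-142-5p) to 12 arrays (miR-223), the smooth muscle markers miR-143 and miR-145 on 3 each, and of 5 markers of other tissues, miR-375 was detected on 16 arrays, miR-122 on 2 and the other 3 on 0.

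Sequences are shown for the star strands that were detected most often, for 6 of their mates and for miR-30c. Shown too are 3 close copies, which are set beside their counterparts below. All sequences were taken from RefSeq on build GRCm38.p6. There 9 of the 11 most often detected star strands matched by name, while miR-30b* and miR-199b* had no match. The seed, bases 2 to 8 from the 5′ end, is in capitals.
miR-30c-2*: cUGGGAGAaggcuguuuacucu
miR-30c-1*: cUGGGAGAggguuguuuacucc
miR-30c: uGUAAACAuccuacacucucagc
miR-30a*: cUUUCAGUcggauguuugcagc
miR-30e*: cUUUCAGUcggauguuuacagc
miR-30a: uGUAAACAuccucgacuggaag
miR-140*: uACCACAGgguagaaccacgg
miR-877*: uGUCCUCUucucccuccuccca
miR-877: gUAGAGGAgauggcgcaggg
miR-483*: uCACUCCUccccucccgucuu
miR-483: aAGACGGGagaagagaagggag
let-7d*: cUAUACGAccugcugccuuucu
let-7b*: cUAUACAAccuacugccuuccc
let-7d: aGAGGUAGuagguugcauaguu
miR-200b*: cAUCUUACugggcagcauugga
miR-200b: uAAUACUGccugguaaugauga
miR-674*: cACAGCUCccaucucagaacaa
miR-674: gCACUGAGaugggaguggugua
miR-34c*: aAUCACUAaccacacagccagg

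The 9 star strands were 21 or 22 bases long and had 9 distinct seeds. miR-30a* (chr1:23272315-23272336) and miR-30c-2* (chr1:23291754-23291775) lay 19417 bases apart on the plus strand. miR-140* (chr8:107551288-107551308) lay within the span of Wwp2, miR-877* (chr17:35960731-35960752) within Abcf1, a ribosome-associated ATPase gene, and miR-483* (chr7:142654932-142654952) within Igf2, an imprinted growth factor gene. miR-877* and miR-483* stood apart in base composition. Cytosine made up 54.5% of miR-877* and 57.1% of miR-483*, against 18.2% to 40.9% of the other 7. Of 1738 mature mouse sequences, 1.78% had at least the cytosine share of miR-877*.

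Star strands were rarely detected in these lungs. The extraction software called a miRNA detected when at least 1 of its probes had a total signal over 3 times its error, a rule that matched the deposited call in 14664 of 14664 combinations of miRNA and array. All 24 arrays detected 0 of the 111 star strands, while 11 (9.91%) were seen on at least 6 arrays, 13 (11.7%) were seen on 1 to 5 arrays and 87 (78.4%) on none. Of the 100 mates, all 24 arrays detected 13, with 38 on at least 6 and 48 on none. Of the 500 other mouse miRNAs, mates included, 109 (21.8%) were detected on at least 6 arrays.

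Among the star strands detected most often were 3 from hairpins of the miR-30 family, which is abundant in lung. miR-30c-2* was detected on 17 of the 24 arrays, miR-140* on 15, miR-30a* on 14, miR-30b* and miR-877* on 13 each, miR-483* on 11, let-7d* on 10, miR-199b* and miR-200b* on 9 each, miR-674* on 7 and miR-34c* on 6. Below the minimum of 6 arrays, miR-29c* was detected on 4 arrays, let-7b*, miR-299*, miR-29b* and miR-485* on 3 each, miR-17*, miR-18a* and miR-330* on 2 each, and let-7f*, miR-10a*, miR-295*, miR-378* and miR-411* on 1 each.

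**Figure D1:**
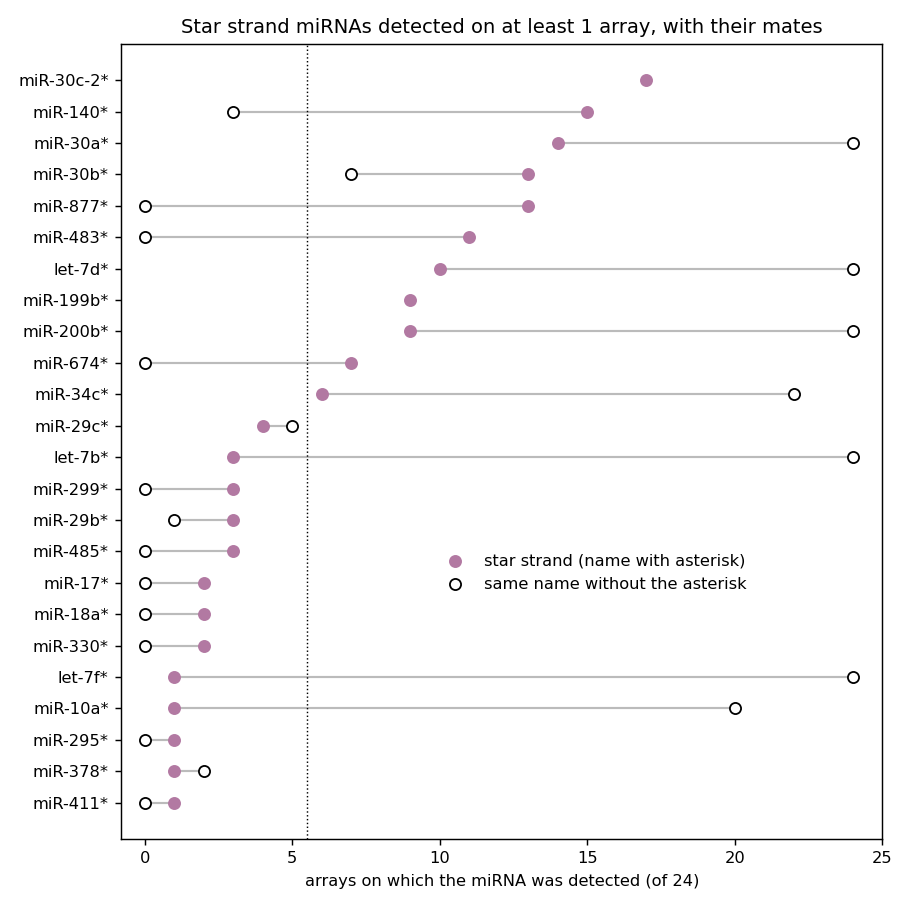
Number of the 24 arrays on which each of the 24 star strand miRNAs seen on at least 1 array was detected (filled points), with the same name without the asterisk where it is on the array (open points). The dotted line marks the minimum of 6 arrays for testing; miR-877*, miR-483* and miR-674* lie right of their mates at 0, and miR-30a*, let-7d* and miR-200b* lie left of their mates at 24.

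The arms of a hairpin were often not detected together. In 38 of the 100 pairs neither arm was detected on any array, in 40 only the mate, in 12 both arms and in 10 only the star strand. The 10 were miR-877*, miR-483*, miR-674*, miR-299*, miR-485*, miR-17*, miR-18a*, miR-330*, miR-295* and miR-411*. In 13 pairs the star strand was detected on more arrays than the mate, among them miR-140* (15 arrays against 3 for miR-140) and miR-30b* (13 against 7 for miR-30b). Conversely, of the 13 mates detected on all 24 arrays, 8 had a star strand detected on 0 arrays, namely let-7a*, let-7i*, miR-15b*, miR-200c*, miR-214*, miR-22*, miR-29a* and miR-92a*. The other 5 were the mates of miR-30a*, let-7d*, miR-200b*, let-7b* and let-7f*. Counts of arrays rest on each probe's own sensitivity, so they do not order the amounts of the arms.

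Star strands were also on the array for some of the miRNAs that the study measured by PCR. These were miR-21*, miR-146b*, miR-183*, miR-322*, miR-127*, miR-433* and miR-15a*, and all 7 were detected on 0 arrays, as were 78.4% of the 111. Their mates were detected on 22 arrays (miR-21), 9 (miR-146b), 11 (miR-183), 8 (miR-322), 9 (miR-127), 1 (miR-433) and 23 (miR-15a).

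Star strands of the miR-30 family that are close in sequence differed in detection. miR-30e* has 1 base different from miR-30a* (G18A, miR-30a* first, counted from the 5′ end) and the same seed. miR-30a* was detected on 14 arrays and miR-30e* on 0, and the intensity of miR-30e* on the 24 arrays ran from -1.42 to 2.75 units. miR-30c-1* differs from miR-30c-2* by A9G, C12U and U22C, and was detected on 0 arrays against 17. Its intensity ran from -2.73 to 3.43 units.

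Most detections of a star strand rested on 1 probe. Each miRNA had 20 spots, made of 2 to 4 different probes for the 11 star strands above, and in 103 of the 151 detections of star strands (68.2%) only 1 of several probes passed. All probes passed in 33 (21.9%). For the mates, 308 of 691 detections (44.6%) rested on 1 probe and 371 (53.7%) on all. All 17 detections of miR-30c-2* and all 9 of miR-200b* rested on 1 probe, and the median over the 20 spots of miR-200b* lay at the floor of the scale on all 24 arrays, so it has no value in the fits below. By contrast, all probes passed in 11 of the 13 detections of miR-877* and in 9 of the 11 of miR-483*.

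The number of star strands detected on an array was asked next. In M WT it was 0 to 9 (median 5), in M c-Raf 1 to 17 (median 8), in F WT 2 to 15 (median 6) and in F c-Raf 1 to 12 (median 5.5). The groups overlapped throughout. The mean was 8 ± 6.54 (SD, n = 6) in M c-Raf against 4.67 ± 3.08 in M WT, a difference of 3.33 (exact two-sided permutation test, p = 0.314, adjusted p over 4 comparisons = 0.675). In F c-Raf it was 5.67 ± 4.32 against 6.83 ± 5.60 in F WT, a difference of -1.17 (exact permutation p = 0.721, adjusted p = 0.721). Between the sexes the difference was -2.17 for M WT minus F WT (exact permutation p = 0.461) and 2.33 for M c-Raf minus F c-Raf (exact permutation p = 0.506), each with an adjusted p of 0.675. None of the 4 comparisons passed. On the 6 slides M c-Raf was above M WT on 5 and below it on 1 (2 against 6), and without M c-Raf replicate 4 the difference in males was 1.53 and that of the sexes in c-Raf lungs 0.533. Without F WT replicate 4 the difference of F c-Raf and F WT was 0.467, and that of the sexes in WT was -0.533. On each slide a group always took the same position, so position and group cannot be told apart, and in bulk RNA fewer cells of a type cannot be told apart from less RNA per cell.

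The count moved with the scan and with the brightness of the array. The 8 arrays of scan 4 had 0 to 4 star strands, those of scan 3 had 8 to 12, those of scan 1 had 6 to 17 and those of scan 2 had 1 to 12, at median brightnesses of 214 (scan 4), 250 (scan 3), 455 (scan 1) and 147 units (scan 2). The value of M c-Raf was above that of M WT within each of the 4 scans. It was 17 against 6 in scan 1 and 7 against 5 in scan 2. In scans 3 and 4 it was 12 against 9 and 2.5 against 1.5. For females the values of transgenic and wild type arrays in scans 1 to 4 were 12 against 15, 4.5 against 6, 8 against 10 and 2.5 against 2. Scans 1 and 3 held 1 slide each, so their values are single arrays, and those of scans 2 and 4 are means. In scan 1 the male arrays were M c-Raf replicate 4 (brightness 1212 units) and M WT replicate 4 (52.8). The median brightness was 176 units in M WT, 433 in M c-Raf, 265 in F WT and 193 in F c-Raf, and its part in the counts was not tested apart from the following relation.

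Over the 24 arrays, the number of star strands increased with log2 brightness (Pearson r = 0.647, permutation p = 0.00048, adjusted over 12 relations 0.00115; Spearman rho = 0.673, permutation p = 0.00036, adjusted 0.000864). Leaving out M c-Raf replicates 4 and 6, whose brightness was the most extreme, gave an r of 0.544. Within scans 2 and 4, with 8 arrays each, r was 0.897 and 0.858, and scans 1 and 3 held 4 arrays each, too few for a value. As a share of all mouse miRNAs detected on the same array, star strands made up 0% to 9.68% of those in M WT (median 6.73%), 1.67% to 9.68% in M c-Raf (7.01%), 3.03% to 10.6% in F WT (5.89%) and 1.85% to 8.63% in F c-Raf (5.46%).

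**Figure D2:**
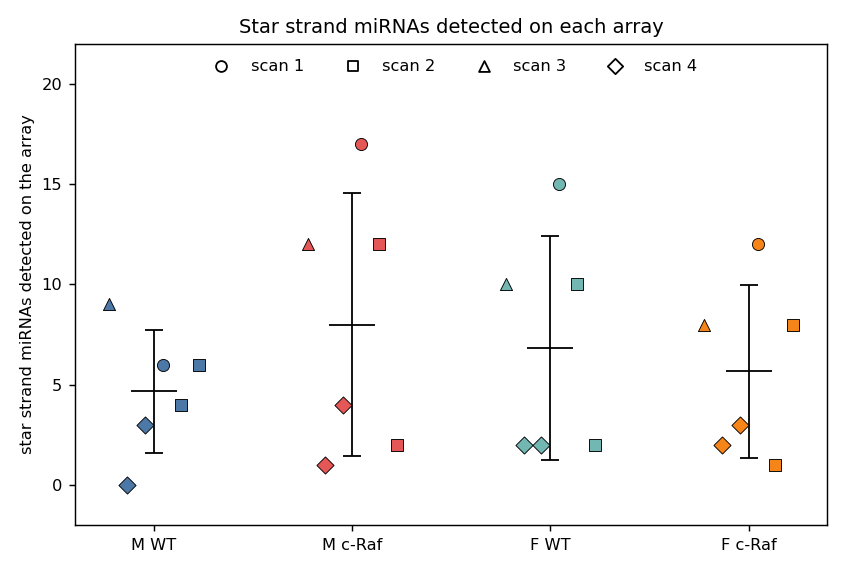
Star strand miRNAs detected on each array by group; each point is 1 array, its shape gives the scan, the long dash is the group mean and the bars are 1 SD (n = 6). The arrays of scan 4 lie between 0 and 4 in every group, and the highest array, M c-Raf replicate 4, lies at 17.

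No star strand was detected on all 6 arrays of a group except miR-30a* in F c-Raf. The star strands detected on at least 4 of a group's 6 arrays numbered 0 in M WT, 4 in M c-Raf (miR-30c-2*, miR-140*, miR-30a*, miR-199b*), 4 in F WT (miR-30c-2*, miR-140*, miR-30b*, miR-877*) and 3 in F c-Raf (miR-30c-2*, miR-140*, miR-30a*). The same count over all mouse miRNAs is not given, so the 0 of M WT is not read as a trait of star strands. M WT also had the lowest median brightness, 176 units against 193 to 433 in the other groups. Values of the 11 follow, each being the median of the 20 spots on an array, before any scaling.

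miR-30c-2*, from the hairpin that also gives miR-30c, was detected on 3 arrays of M WT, 5 of M c-Raf, 5 of F WT and 4 of F c-Raf. Its intensity was 1.38 to 10.8 units in M WT (median 3.92), 0.278 to 23.7 in M c-Raf (12.4), 2.85 to 13.2 in F WT (10.4) and 3.21 to 11.8 in F c-Raf (5.03). Its ranges overlapped in all 4 groups, with the highest value in M c-Raf replicate 5. No name without the asterisk matches it; miR-30c, without the copy number, was detected on 20 arrays.

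miR-30a* was detected on 2 arrays of M WT, 4 of M c-Raf, 2 of F WT and 6 of F c-Raf, while miR-30a was detected on all 24. The intensity of miR-30a* was -0.991 to 9.80 units in M WT (median 6.75), 2.35 to 29.1 in M c-Raf (14.3), 3.65 to 21.9 in F WT (8.15) and 6.57 to 14.1 in F c-Raf (9.75). miR-30a gave 5.2 to 63.0 units in M WT (median 42.2), 10.8 to 376 in M c-Raf (122), 15.4 to 152 in F WT (56.7) and 27.9 to 116 in F c-Raf (72). Both arms had their highest value on the brightest array, M c-Raf replicate 4, and their lowest on M WT replicate 4.

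miR-30b* was detected on 3, 3, 4 and 3 arrays of M WT, M c-Raf, F WT and F c-Raf. Its intensity was -0.491 to 10.1 units in M WT (median 2.53), 2.14 to 8.75 in M c-Raf (6.07), 2.15 to 8.40 in F WT (5.57) and 1.69 to 6.53 in F c-Raf (2.53). miR-30b was detected on 0, 3, 2 and 2 arrays and gave -2.95 to 4.93 units in M WT (median 0.343), 0.693 to 27.0 in M c-Raf (3.94), -1.59 to 9.44 in F WT (2.36) and -0.987 to 6.07 in F c-Raf (1.77). The ranges of all groups overlapped for both arms.

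miR-140*, whose hairpin is best known from cartilage, was detected on 3 arrays of M WT and on 4 of each other group. Its intensity was -1.28 to 7.97 units in M WT (median 6.36), 0.914 to 50.5 in M c-Raf (13.4), 1.82 to 25.8 in F WT (9.17) and 2.32 to 9.62 in F c-Raf (5.67). miR-140 was detected on 0, 1, 1 and 1 arrays, and gave 0.329 to 6.63 units over all 24. The groups overlapped, and the highest value of miR-140* lay on the brightest array.

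miR-877* and miR-483*, the cytosine-rich star strands, had group medians within a narrow range, 6.18 to 9.0 units. miR-877* was detected on 3 arrays of M WT, 3 of M c-Raf, 4 of F WT and 3 of F c-Raf, with 1.41 to 27.5 units in M WT (median 6.66), 3.31 to 18.5 in M c-Raf (9.0), 1.06 to 14.8 in F WT (7.18) and 3.32 to 16.9 in F c-Raf (6.25). miR-483* was detected on 3, 2, 3 and 3 arrays, with -0.191 to 11.1 units in M WT (median 6.70), -2.84 to 9.76 in M c-Raf (6.76), 0.960 to 10.9 in F WT (6.18) and 1.58 to 7.89 in F c-Raf (6.31). The 4 medians of miR-483* lay between 6.18 and 6.76 units, although the median brightness of the groups ran from 176 to 433. Their mates miR-877 (-4.48 to 0.697 units over all 24 arrays) and miR-483 (-6.77 to 2.62 units) were detected on 0 arrays.

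Over the 24 arrays, the unscaled intensity of miR-140* correlated with log2 brightness (Pearson r = 0.813, permutation p = 1e-05, the smallest the 100000 resamples can give; adjusted over 12 relations 3e-05; Spearman rho = 0.954, permutation p = 1e-05). Without M c-Raf replicates 4 and 6 it was 0.847, and it was 0.882 and 0.806 within scans 2 and 4. miR-30c-2* (r = 0.866, rho = 0.877), miR-30a* (r = 0.887, rho = 0.858) and miR-199b* (r = 0.752, rho = 0.691) had adjusted permutation p values of 3e-05 for r and of 0.000864 or less for rho. For miR-877* r was 0.0786 (permutation p = 0.713, adjusted 0.783; rho = 0.232, p = 0.273). For miR-483* r was -0.0764 (permutation p = 0.718, adjusted 0.783; rho = 0.0496, p = 0.816), and for let-7d* it was -0.000595 (permutation p = 0.998; rho = 0.18, p = 0.399). Within scans 2 and 4, r was 0.610 and -0.245 for miR-877*, -0.0321 and -0.708 for miR-483*, and 0.220 and -0.119 for let-7d*.

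**Figure D3:**
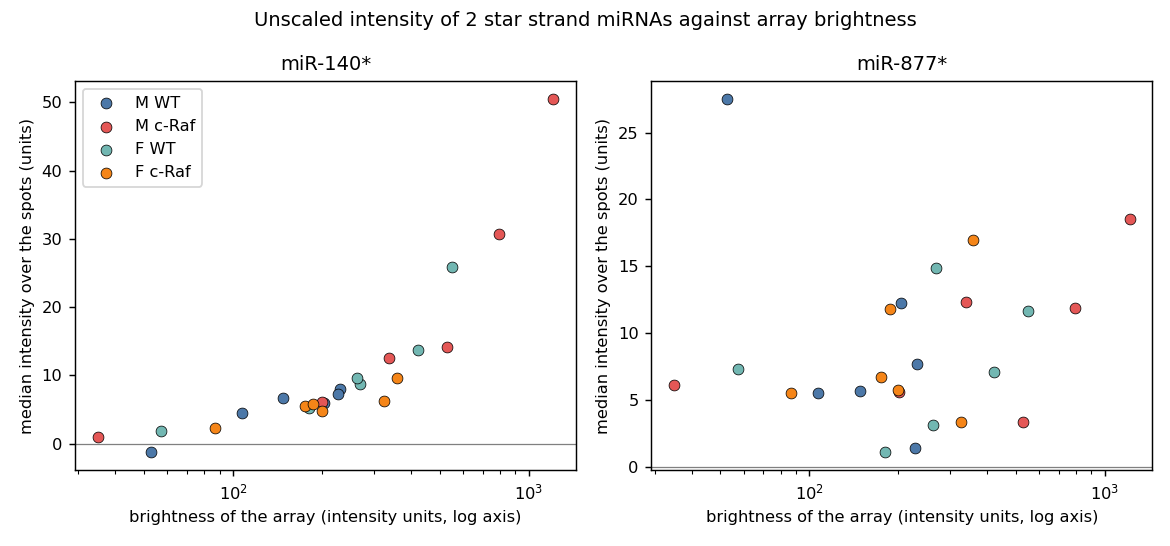
Median intensity over the spots of miR-140* (left) and miR-877* (right) on each of the 24 arrays, in intensity units, against the brightness of the array on a log axis; colours give the group. miR-140* climbs to 50.5 units on the brightest array, whereas the highest value of miR-877*, 27.5 units, lies on M WT replicate 4, an array of 52.8 units of brightness.

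let-7d*, from a family of miRNAs known for their part in differentiation, was detected on 3 arrays of M WT, 3 of M c-Raf, 3 of F WT and 1 of F c-Raf. Its intensity was -1.16 to 22.2 units in M WT (median 2.04), -1.37 to 3.13 in M c-Raf (1.51), 0.506 to 11.4 in F WT (1.67) and -1.89 to 2.80 in F c-Raf (1.30). Only 3 arrays were above 5 units, M WT replicate 5 with 22.2, F WT replicate 1 with 11.4 and M WT replicate 4 with 5.43. let-7b*, which differs from let-7d* by G7A, G12A, U20C and U22C, was highest on the same 3 arrays with 20.3, 10.9 and 7.0 units, and was detected on those 3 only. let-7d was detected on all 24 arrays and gave 28.1 to 215 units in M WT (median 143), 32.5 to 1386 in M c-Raf (420), 42.8 to 566 in F WT (239) and 81.9 to 413 in F c-Raf (197).

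miR-199b*, from a hairpin expressed in mesenchymal cells, was detected on 1, 4, 2 and 2 arrays of M WT, M c-Raf, F WT and F c-Raf. Its intensity was 0.301 to 6.89 units in M WT (median 2.18), 1.96 to 21.0 in M c-Raf (8.01), 1.32 to 6.61 in F WT (3.77) and 2.62 to 5.96 in F c-Raf (3.43). The name miR-199b without an asterisk was not on the array.

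miR-200b*, from an epithelial hairpin whose guide strand represses Zeb1 and Zeb2, was detected on 1, 3, 2 and 3 arrays of M WT, M c-Raf, F WT and F c-Raf. Its median over the spots lay between -2.29 and 1.61 units on all 24 arrays. The probe that carried the signal gave -0.344 to 5.94 units in M WT (median 3.89), 1.5 to 30.3 in M c-Raf (10.1), 1.12 to 11.6 in F WT (7.52) and 1.70 to 8.66 in F c-Raf (5.28). miR-200b was detected on all 24 arrays, with 1.07 to 33.1 units in M WT (median 23.1), 10.8 to 205 in M c-Raf (80.3), 14.5 to 91.6 in F WT (44.1) and 38.9 to 108 in F c-Raf (50.1).

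miR-674* and miR-34c* lay near background on most arrays, and M WT was the only group without a detection of either. miR-674* was detected on 0, 3, 2 and 2 arrays, with -3.74 to 6.11 units in M WT (median -0.0109), -0.116 to 12.5 in M c-Raf (1.30), -1.67 to 5.33 in F WT (1.35) and -0.0507 to 2.94 in F c-Raf (1.72). miR-674 was detected on 0 arrays. miR-34c*, from a hairpin that p53 activates, was detected on 0, 3, 1 and 2 arrays, with -5.2 to 3.00 units in M WT (median 0.822), -1.04 to 21.6 in M c-Raf (2.88), -2.40 to 12.6 in F WT (0.908) and -5.49 to 3.76 in F c-Raf (1.66). miR-34c was detected on 5 arrays of each male group and on all 6 of each female group, at 1.85 to 71.2 units over all 24. No fold against M WT is read for either, as the mean of each other group was under the dimmest signal that passed on M WT arrays. Differences of miR-674* under other settings are listed at the end for their sign only.

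Intensities were then scaled to the brightness of each array and compared on the log2 scale, with a floor of 0.01 (-6.64 on the log2 scale) below which values have no order. The filter of 6 arrays left 120 mouse miRNAs, 11 of them star strands; which star strands passed depended on their detection in any group. The SD of the scaled values within a group was 0.96 to 1.86 for miR-877*, 1.06 to 1.67 for miR-483* and 0.46 to 1.71 for let-7d*, against 0.25 to 0.79 for miR-140* and 0.31 to 0.66 for miR-30c-2*. On M WT replicate 4 and M c-Raf replicate 6, the dimmest arrays, miR-877* stood at -0.94 and -2.51.

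**Figure D4:**
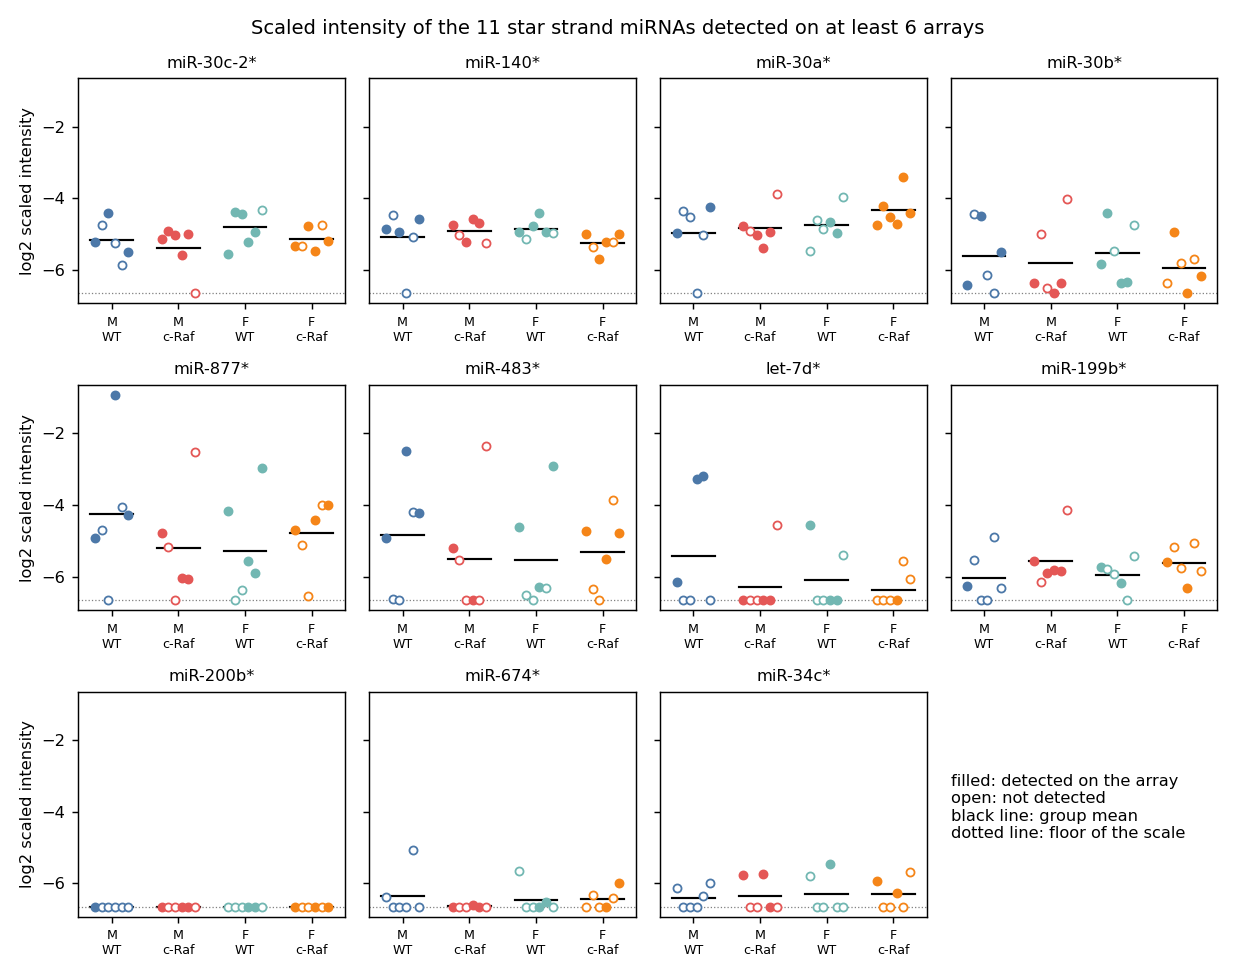
log2 scaled intensity of the 11 star strand miRNAs detected on at least 6 arrays, by group; each point is 1 array, filled where the miRNA was detected on it, the black line is the group mean and the dotted line the floor at -6.64. The groups overlap in every panel, and miR-200b* lies at the floor on all 24 arrays.

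In lungs of c-Raf males, 0 of the 11 star strands were called against M WT at an adjusted p under 0.05 (limma), and 0 had an unadjusted p under 0.05, beside 3 of 120 mouse miRNAs called (2.5%). The median difference of the 11 was -0.21 on the log2 scale, with 4 above and 6 below 0, against a median of 0.13 over the 120. The smallest p values were those of let-7d* (-0.87, SE 0.60, adjusted p = 0.333), miR-199b* (0.48, SE 0.33, adjusted p = 0.333) and miR-674* (adjusted p = 0.369), which lay at the floor on 4 of 6 arrays of M WT and 5 of 6 of M c-Raf, so that its size is not given. let-7d* lay at the floor on 3 of 6 arrays of M WT and 5 of 6 of M c-Raf, so its size rests on the floor too. The only M c-Raf array above the floor was replicate 6, where let-7d* was not detected. For let-7d* the scaled means were -5.43 in M WT and -6.30 in M c-Raf, and the difference was -3.36, -0.68, -0.49 and 0 within scans 1 to 4. The miR-199b* difference was 0.83, 0.61, 0.70 and 0.07 within the scans, with means of -6.05 in M WT and -5.57 in M c-Raf. Without M WT replicate 4 or 5, the difference of let-7d* was -0.44 or -0.42, and without M c-Raf replicate 6 that of miR-199b* was 0.20.

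In lungs of c-Raf females, 0 of the 11 were called against F WT (limma, 0 with an unadjusted p under 0.05), beside 6 of 120 (5%). The median difference was 0, with 5 above and 5 below, against 0.03 over the 120. miR-140* had the smallest p, with a difference of -0.39 (SE 0.26, adjusted p = 0.519), and F c-Raf was below F WT on 6 of 6 slides although the groups overlapped (-5.71 to -4.99 against -5.13 to -4.41). Within scans 1 to 4 the difference of miR-140* was -0.81, -0.15, -0.05 and -0.59, and with normexp background correction it was 0.58. The difference was 0.42 for miR-30a* (SE 0.35, adjusted p = 0.641) and -0.06, 0.56, 0.73 and 0.37 within the scans, and without F c-Raf replicate 5 it was 0.24. For miR-30c-2* it was -0.33 (SE 0.29, adjusted p = 0.664) and -0.26, -0.33, 0.22 and -0.66 within the scans, and 0.63 with normexp background correction.

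Over both sexes, 0 of the 11 were called between c-Raf and WT (limma, 0 with an unadjusted p under 0.05), beside 22 of 120 (18.3%). The median difference was -0.14, with 3 above and 7 below 0, against 0.09 over the 120. miR-199b* differed by 0.40 (SE 0.24, adjusted p = 0.286), was higher in c-Raf on 6 of 6 slides and differed by 0.35, 0.60, 0.41 and 0.23 within scans 1 to 4. With quantile normalization in place of the scaling it was called (0.55, adjusted p = 0.037), and with normexp, a background correction that models signal and noise together, its difference was -0.09. Without M c-Raf replicate 6 it was 0.26. let-7d* differed by -0.57 (SE 0.42, adjusted p = 0.389; -1.68, -0.24, -1.29 and 0 within the scans), and by -0.36 or -0.35 without M WT replicate 4 or 5. It lay at the floor on 16 of the 24 arrays, so these sizes rest on the floor. On its brightest probe alone, an alternative chosen after the data were seen, let-7d* was called (-1.12, adjusted p = 0.0298). miR-30c-2* differed by -0.28 (SE 0.21, adjusted p = 0.389; -0.29, -0.23, 0.15 and -0.52 within the scans), by -0.15 without M c-Raf replicate 6 and by 0.19 without scaling.

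The mates of 2 of these star strands did pass. Over both sexes, miR-30a rose by 0.50 (SE 0.16, adjusted p = 0.0288) and miR-200b by 0.75 (SE 0.26, adjusted p = 0.0482) in c-Raf lungs, each on 6 of 6 slides. These calls were near the threshold: leaving out each array in turn, miR-30a was called in 21 of 24 fits and miR-200b in 8 of 24, with differences of 0.39 to 0.56 and 0.52 to 0.82. Of 14 other alternatives, 6 called miR-30a and 7 called miR-200b, all with a difference above 0. The difference was 0.28 for miR-30a* (adjusted p = 0.468), and miR-200b* had no value. let-7d differed by 0.25 (SE 0.10, adjusted p = 0.079), against -0.57 for let-7d*, which lay at the floor on 16 of the 24 arrays.

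**Figure D5:**
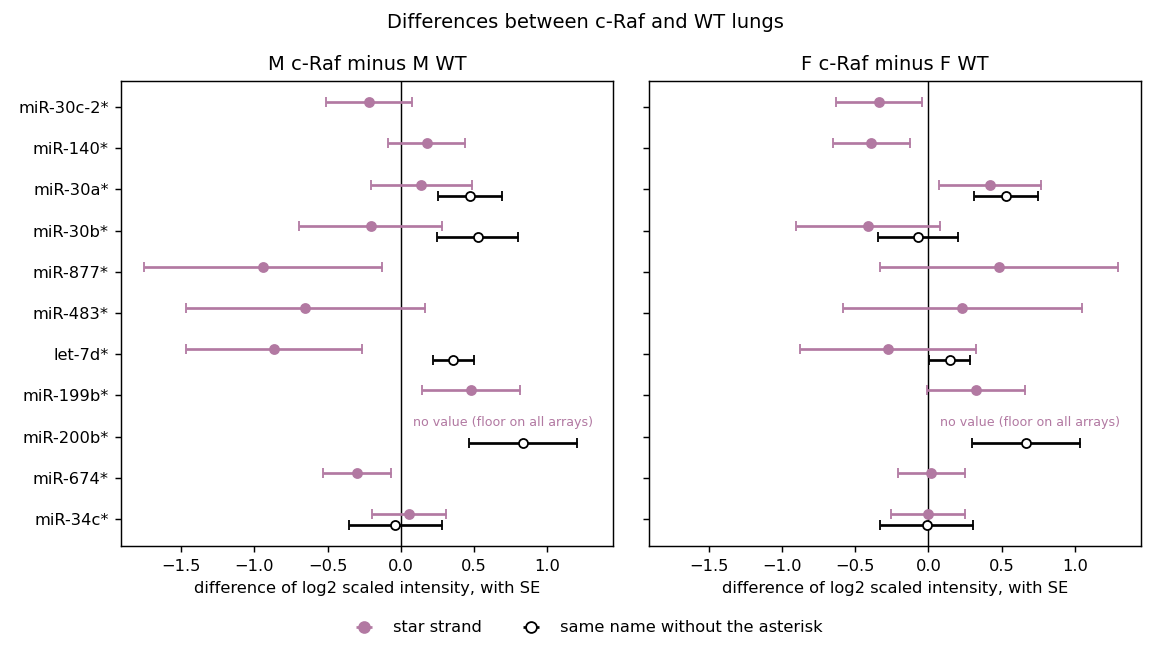
Differences of log2 scaled intensity between c-Raf and WT in males (left) and females (right), with 1 SE from the fit (6 arrays a group), for the 11 star strands (filled) and for mates that were tested (open). Star strands lie on both sides of 0 and none was called in either sex; for those at the floor on most arrays, miR-674* among them, the position rests on the floor.

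An interaction term tested whether males and females differed in their c-Raf difference, and 0 of the 11 star strands and 0 of the 120 (0%) were called (limma). No star strand had an unadjusted p below the threshold of 0.05. Smallest were the p values of miR-140* (0.57, SE 0.37), miR-877* (-1.42, SE 1.15) and miR-674*, whose size rests on M WT and is not given, each with an adjusted p of 0.872. Without M WT replicate 4 the interaction of miR-877* was -0.76 and that of miR-140* was 0.26, and with normexp background correction that of miR-140* was -1.35. Within scan 1, a slide with 1 array a group, the interaction was -6.25 for miR-877* and 2.87 for miR-140*; within scans 2 to 4 it was -0.57, 0.67 and -0.92 for miR-877*, 0.01, 0.17 and 0.18 for miR-140*.

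Between the sexes, 0 of the 11 were called in WT, beside 0 of 120 (0%), and 0 of the 11 in c-Raf lungs, beside 3 of 120 (2.5%); 0 star strands had an unadjusted p under 0.05 in either comparison (limma). For M WT minus F WT the smallest p values were those of miR-877* (1.02, SE 0.81), miR-30c-2* (-0.35, SE 0.29) and let-7d* (0.66, SE 0.60), each with an adjusted p of 0.608. In scan 1 the difference was 4.62 for miR-877* and 3.36 for let-7d*, and in scan 3 it was -0.74 and -1.59, so the sign was not the same in all scans. Without M WT replicate 4 they were 0.35 and 0.23, without M WT replicate 5 miR-30c-2* was at -0.21 and let-7d* at 0.22, and without scaling let-7d* was at -1.09. For M c-Raf minus F c-Raf they were those of miR-30a* (-0.49, SE 0.35), miR-140* (0.33, SE 0.26) and miR-674* (-0.20, SE 0.23), each with an adjusted p of 0.952. miR-674* and let-7d* each lay at the floor on 16 of the 24 arrays, and without F c-Raf replicate 5 the difference of miR-30a* was -0.30.

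The balance of the arms was asked last, as the log2 scaled intensity of a star strand minus that of its mate on the same array, so that the brightness of the array cancels where both lie above the floor. Both arms passed the filter in 7 of 167 pairs on the array, 5 of them with a star strand: miR-30a*, miR-30b*, let-7d*, miR-200b* and miR-34c*. Since probes differ in sensitivity, only differences of this ratio between groups are read. By limma 0 pairs were called over both sexes (0%), 0 in males (0%) and 0 in females (0%). At an unadjusted p under 0.05 there were 0 star pairs in either sex and 1 over both sexes, miR-200b*.

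The ratio of miR-200b* was lower in c-Raf lungs on 6 of 6 slides. Its difference over both sexes was -0.75 (SE 0.29, adjusted p = 0.103 by limma), and -1.96, -0.58, -0.67 and -0.36 within scans 1 to 4. With the scan as a block the adjusted p was 0.0452, and with slide as a block it was 0.0501. Without M WT replicate 4 the difference was -0.52 and passed (adjusted p = 0.0425). The ratio was -4.05 to -1.02 in M WT (median -3.71), -4.95 to -3.69 in M c-Raf (-4.14), -4.66 to -3.82 in F WT (-4.16) and -5.49 to -4.43 in F c-Raf (-4.86). As miR-200b* was at the floor on all 24 arrays, this is the difference of miR-200b with its sign turned and says nothing of miR-200b* itself. By sex, with miR-200b* at the floor, it was -0.83 in males (SE 0.41, adjusted p = 0.202; -0.37 without M WT replicate 4) and -0.67 in females (SE 0.41, adjusted p = 0.798). On the brightest probes, where miR-200b* has values, it was -0.12 in males (adjusted p = 0.70 by limma) and -0.50 over both sexes (adjusted p = 0.0618). In females it was -0.88 and was called (adjusted p = 0.0278). There miR-200b alone differed by 0.85 on its brightest probe (adjusted p = 0.0278 by limma) and miR-200b* by -0.03, so this call too moved with the mate. In males miR-200b* differed by 0.52 and miR-200b by 0.63 on these probes. The difference of the ratio between the sexes on these probes was 0.77 and was not called (adjusted p = 0.433 by limma).

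The ratio of let-7d* differed by -1.23 in males (SE 0.62, adjusted p = 0.202), -0.42 in females (SE 0.62, adjusted p = 0.983) and -0.83 over both sexes (SE 0.44, adjusted p = 0.245). It was -6.28 to -2.37 in M WT (median -6.07), -6.84 to -4.45 in M c-Raf (-6.59), -6.69 to -4.31 in F WT (-6.56) and -6.99 to -5.48 in F c-Raf (-6.54), and let-7d* lay at the floor on 16 of the 24 arrays. Without M WT replicate 4 or 5 the difference in males was -0.70 or -0.82, and without F WT replicate 1 that in females was -0.10. With a floor of 0.1, the ratio of let-7d* was called in males (-0.39, adjusted p = 0.0411 by limma) and over both sexes (-0.27, adjusted p = 0.0168). let-7d* was above that floor only on M WT replicates 4 and 5 (-3.28 and -3.19). Elsewhere this ratio moved with let-7d, its sign turned, and let-7d differed by 0.36 in males and 0.25 over both sexes. On the brightest probes the ratio of let-7d* was called over both sexes (-1.32, adjusted p = 0.0233). For miR-30b* the ratio differed by -0.73 in males (SE 0.61, adjusted p = 0.406), -0.34 in females (SE 0.61, adjusted p = 0.983) and -0.54 over both sexes (SE 0.43, adjusted p = 0.389). In the authors' processed table, with its empty entries set to the floor of 0.01, it was called in males (-5.68, adjusted p = 0.00601 by limma). Over both sexes it was called there too (-3.38, adjusted p = 0.0236). These calls can rest on that fill, as miR-30b was detected on 0 arrays of M WT. Without M WT replicate 5 the ratio of miR-30b* was -1.12 in males. For miR-30a*, the pair with the fewest values at the floor, the ratio was -2.69 ± 0.49 (SD, n = 6) in M WT, -3.02 ± 0.52 in M c-Raf, -2.66 ± 0.55 in F WT and -2.77 ± 0.58 in F c-Raf, and its difference over both sexes was -0.22 (SE 0.26, adjusted p = 0.467 by limma).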

How the data were processed

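Each array was 1 animal's Cy3-labelled RNA on a slide of 4 group positions, over 6 slides and 4 scans. Per the file headers, the authors' scanner files were written by Feature Extraction 10.7.3.1 (the labels name 8.1.3) and hold the background-subtracted intensity of each spot and the detection call. The authors' deposited table holds scaled intensities for 58 of the 111 star strands, 100% of them within 1% of scaled spot medians, and was an alternative only. Its empty entries were set to the floor of 0.01. Every column matched a sample (0 did not), and 0 spots were saturated. Replicates were separate animals.

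Control spots were left out, and spots flagged as outliers were not removed. The median over a miRNA's spots was divided by the 75th percentile over 27 mouse miRNAs detected on all 24 arrays, floored at 0.01 (0.349 to 12.1 units, by array) and put on the log2 scale. The 120 mouse miRNAs detected on at least 6 arrays were fitted with limma 3.58.1 (R 4.3.3; lmFit and eBayes over the 4 groups, 20 residual degrees of freedom, p-values adjusted by Benjamini-Hochberg over all 120; arm ratios over 7 pairs). Calls needed an adjusted p under 0.05. The fit was tested on simulated data. Detection counts were compared by exact permutation over 924 divisions, and correlations by 100000 resamples. Alternatives were other scalings, backgrounds, floors, filters, summaries, blocks, array weights, the methods' t-test (p 0.05 with a fold of 3) and leaving out each array. The number of arrays, not of reads, limits precision.

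Members and lists were chosen with earlier results of these data known. Every star strand past the filter is named with its values, and a difference is printed for those called and the 3 with the smallest p, except for miR-674* against M WT, where it was not above background. For miR-674* against M WT, differences under other settings are listed for their sign only. Same-slide arrays deviated together on average (mean r of 0.284, -0.42 to 0.72 over 36 pairs, against -0.0538 over 180 pairs from different slides), with 23 of the 36 above 0.1.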

Additional observations from a re-analysis of the deposited data

Results flagged for a closer look

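In 68 groups of 6 arrays examined for an array far from the rest, 10 (14.7%) held one. A rate of about 1 in 20 by chance is no yardstick here. Several groups had values tied at the floor, and arm ratios were counted beside their own star strands. Of these, 7 lay on M WT replicate 4 and M c-Raf replicate 6, the dimmest arrays. On M WT replicate 4, miR-140* was at -6.64 (other arrays of the group -5.08 to -4.47), miR-30a* at -6.64 (-5.02 to -4.26) and the arm ratio of miR-200b* at -1.02 (-4.05 to -3.61), all on the log2 scale. On M c-Raf replicate 6, miR-483* was at -2.35 (-6.64 to -5.20), miR-199b* at -4.15 (-6.15 to -5.55), let-7d* at -4.55 with the other 5 arrays at the floor of -6.64, and the arm ratio of let-7d* at -4.45 (-6.84 to -6.18). There the unscaled intensities were 6.84 units for miR-483*, 1.49 for let-7d* and 1.96 for miR-199b* on an array with a brightness of 34.9 units.

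miR-674* stood apart on M WT replicate 5 (-5.06; others -6.64 to -6.38), on F WT replicate 1 (-5.65; others -6.64 to -6.52) and on M c-Raf replicate 4 (-6.60; the other 5 at the floor). M WT replicate 5 and F WT replicate 1 were also the arrays with the highest let-7d* and let-7b*.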

How the results depend on the processing

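In each of the 6 comparisons 0 star strands were called, with limma and with the slide as a replicate block; that block changed no count. Star strands were called in the authors' deposited table, 1 in males (miR-674*), 2 in females (miR-34c*, miR-674*), 1 over both sexes (miR-674*) and 1 between the sexes in c-Raf lungs (miR-34c*), with quantile normalization 1 over both sexes (miR-199b*), and on the brightest probe, chosen after seeing the data, 1 over both sexes (let-7d*). In the deposited table a star strand had values on all arrays of a group or on none, and empty entries were set to the floor. Calls in that table, of star strands or of arm ratios, can therefore rest on the fill. For the deposited table, quantile normalization and the brightest probe, counts over all mouse miRNAs are not given. The star strands are therefore not compared with the rest under these settings. The methods' t-test without correction called 1 star strand in males (miR-30e*, detected on 0 arrays), beside 10 of all 611 mouse miRNAs. With correction it called 0 of either. Arm ratios were called with a floor of 0.1 (1 in males, 1 in females, 3 over both sexes), in the deposited table (1, 1 and 1), without the filter (1, 2 and 4), on the brightest probe (1 in females, 1 over both sexes), and over both sexes with total gene signal (1) and scan as a block (1). Every scaled value of miR-30a* (highest -3.41) and of miR-200b* lay under the floor of 0.1, as did let-7d* except on M WT replicates 4 and 5. Ratios of these 3 at that floor move mainly with the mate, its sign turned. The counts of arm ratios are of pairs with a star strand, and calls over all pairs are not given. Without the filter the fit held all 167 pairs rather than 7. Leaving out each array gave 0 to 1 calls of arm ratios over both sexes. The difference in star strands per array between F c-Raf and F WT then ran from -2.43 to 0.467, and paired by slide (replicate block) the exact p for M c-Raf minus M WT was 0.25, with 0.469 and 0.344 for the comparisons of the sexes in c-Raf and WT.

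Signs turned under these settings, and the cause was not tested. With normexp background correction, on the median spot signal, miR-199b* was at -0.88 in males and -0.0901 over both sexes, miR-140* at 0.58 in females, -1.35 in the interaction and -0.89 between c-Raf sexes, miR-30c-2* at 0.63 in females and 0.46 between WT sexes, and the arm ratios in females at 0.10 (miR-200b*) and 0.53 (let-7d*). With scaling on every spot that was no control, miR-674* was at 0.95 in males, miR-30c-2* at 0.12 over both sexes and let-7d* at -0.55 between WT sexes; without scaling these were 1.53, 0.19 and -1.09, and miR-30a* was at 0.21 between c-Raf sexes. In the deposited table they were 4.27, 0.13 and -0.98, and the arm ratio of miR-200b* in males was 0.35. With total gene signal miR-674* was at 0.0408 in males and at 0.00036 in the interaction and between c-Raf sexes, and the arm ratio of miR-30b* in females at 0.0105. The values of miR-674*, at the floor on 16 of 24 arrays, are no measure of size. miR-200b*, at the floor on all 24 arrays, has no value to compare.

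Most star strands lay near background, where a scaled value rests on the floor. In the deposited table, 23, 39, 31 and 33 star strands had values in M WT, M c-Raf, F WT and F c-Raf, of which 12, 24, 15 and 23 were detected on 0 arrays of that group.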
